A study of Mus musculus with 10 samples.

Results

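This report describes the chemokines and their receptors in regulatory T cells (Tregs), the CD4 T cells marked by Foxp3 that hold immune responses in check. Genes were taken from the deposited count table by symbol, as Ccr, Cxcr, Ccl and Cxcl genes with a number, Xcr1, Xcl1, Cx3cr1, Cx3cl1 and the atypical receptors Ackr1 to Ackr4. Of 61 such symbols, Ccl20, Ccr6, Ccr7 and Cxcr5 were left out, and the other 57 of 27179 genes in the table are described. They comprise 8 CC receptors, 7 CXC or other receptors, 4 atypical receptors, 23 CC ligands and 15 CXC or other ligands. Within these families the symbols alone fixed which genes were taken, and no threshold on a measured value was used. The families themselves were chosen with earlier results of these data known.

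RNA was sequenced from C57BL/6 mouse cells sorted as positive for CD4, TCR beta and the YFP reporter. There were 2 libraries of Maf-KO gut, 2 of WT gut, 3 of Maf-KO spleen and 3 of WT spleen. Maf-KO cells carried a floxed Maf gene (Maf fl/fl) and Foxp3Cre-YFP, and WT cells carried Foxp3Cre-YFP alone, so both genotypes hold the Cre-YFP allele and deletion depends on Foxp3-driven Cre. Gut stands for colon and small intestine together, and the labels give no ages. The labels number replicates without saying that they are separate animals, so p-values measure the spread between these samples, which may be technical. The series asks what the transcription factor c-Maf does in Tregs of the intestine.

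Chemokines are small secreted proteins, named CC, CXC, XC or CX3C for the spacing of their first cysteines, and they steer cells through G protein-coupled receptors. Most receptors bind several ligands and most inflammatory ligands several receptors. In T cells, CCR9 guides entry into the small intestine, whose epithelium makes its ligand CCL25, whereas CCR4 and CCR8 mark effector and tissue Tregs and CXCR3 marks Th1-like cells. Atypical receptors bind chemokines without the usual G protein signal and can remove them.

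Total counts per library were 8567035 to 13983965, and 3 counts correspond to 0.231 to 0.377 CPM, where CPM is the read count relative to a library's total, scaled by TMM factors, a normalization between libraries. Maf, the deleted gene, stood at 0.609 and 0.239 CPM in Maf-KO gut and 108 and 109 CPM in WT gut. Its level was 0.195 to 1.10 CPM in Maf-KO spleen and 24.0 to 45.9 CPM in WT spleen. The 8 markers of Tregs and T cells summed to 10336 to 10697 CPM in Maf-KO gut, 9734 to 10859 CPM in WT gut, 4259 to 4746 CPM in Maf-KO spleen and 4262 to 4871 CPM in WT spleen. Among them Foxp3 was higher in gut by a log2 fold change of 0.69 in Maf-KO (edgeR adjusted p = 0.00415) and 0.53 in WT (edgeR adjusted p = 0.0162), and the part of this shift in the tissue differences below was not tested. Summed levels of neutrophil markers were 0.479 to 1.48 CPM in Maf-KO gut, 0.502 to 3.19 CPM in WT gut, 40.5 to 295 CPM in Maf-KO spleen and 40.9 to 687 CPM in WT spleen, highest in WT spleen replicate 3, and 3 of the 5 (Ngp, S100a8 and S100a9) had 0 counts in Maf-KO gut. Macrophage and monocyte markers summed to 250.9 and 80.1 CPM in Maf-KO gut (replicates 2 and 3) and 87.9 and 185 CPM in WT gut (replicates 1 and 3). In spleen these markers summed to 97.3 to 241 CPM in Maf-KO and 121 to 245 CPM in WT.

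Of the 57 genes, 31 passed the low-count filter and were tested, 20 had counts but did not pass, and 6 had no count in any library. The genes without counts were Ccl19, Ccl21b, Ccl21c, Ccl26, Ccl27b and Cxcl15. All 8 CC receptors and 6 of 7 CXC or other receptors were tested, whereas 1 of 4 atypical receptors, 8 of 23 CC ligands and 8 of 15 CXC or other ligands were. Counts of Ccl19, Ccl21a, Ccl21b, Ccl27a and Ccl27b are uncertain, because 45% or more of the 50-base stretches in their transcripts also occur in other genes.

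More reads fell in receptor genes than in chemokine genes in every library, on a scale not corrected for gene length. The receptors described here summed to 2631 and 2274 CPM in Maf-KO gut, 3505 and 3216 CPM in WT gut, 807, 589 and 599 CPM in Maf-KO spleen and 522, 529 and 703 CPM in WT spleen. The chemokines summed to 544 and 469 CPM in Maf-KO gut and 379 and 416 CPM in WT gut. In spleen the chemokines summed to 75.1, 107 and 102 CPM in Maf-KO and 109, 77.4 and 114 CPM in WT.

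On a per-length scale, the authors' log2 FPKM, the order of genes within a group can be compared for the 32 genes those files list. Ccl5 (8.76, SD 0.19), Ccr8 (8.46, SD 0.22), Cxcr6 (8.23, SD 0.44) and Ccr9 (7.11, SD 0.44) had the highest levels in Maf-KO gut. In WT gut the order was Ccr8 (8.67, SD 0.22), Cxcr6 (8.54, SD 0.27), Ccl5 (7.82, SD 0.05) and Ccr9 (7.77, SD 0.08). The highest levels in Maf-KO spleen were those of Cxcr3 (7.5, SD 0.26), Ccr8 (6.50, SD 1.15) and Ccl5 (6.42, SD 0.62). Cxcr3 (7.27, SD 0.15), Ccl5 (6.42, SD 0.19) and Ccr8 (6.34, SD 0.59) led in WT spleen. Neighbours that differed by less than the sum of their SDs were Ccl5 and Ccr8, and Ccr8 and Cxcr6, in Maf-KO gut, and Ccr8 and Cxcr6, and Ccl5 and Ccr9, in WT gut. In spleen they were Cxcr3 and Ccr8, and Ccr8 and Ccl5, in Maf-KO, and Ccl5 and Ccr8 in WT.

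**Figure D1:**
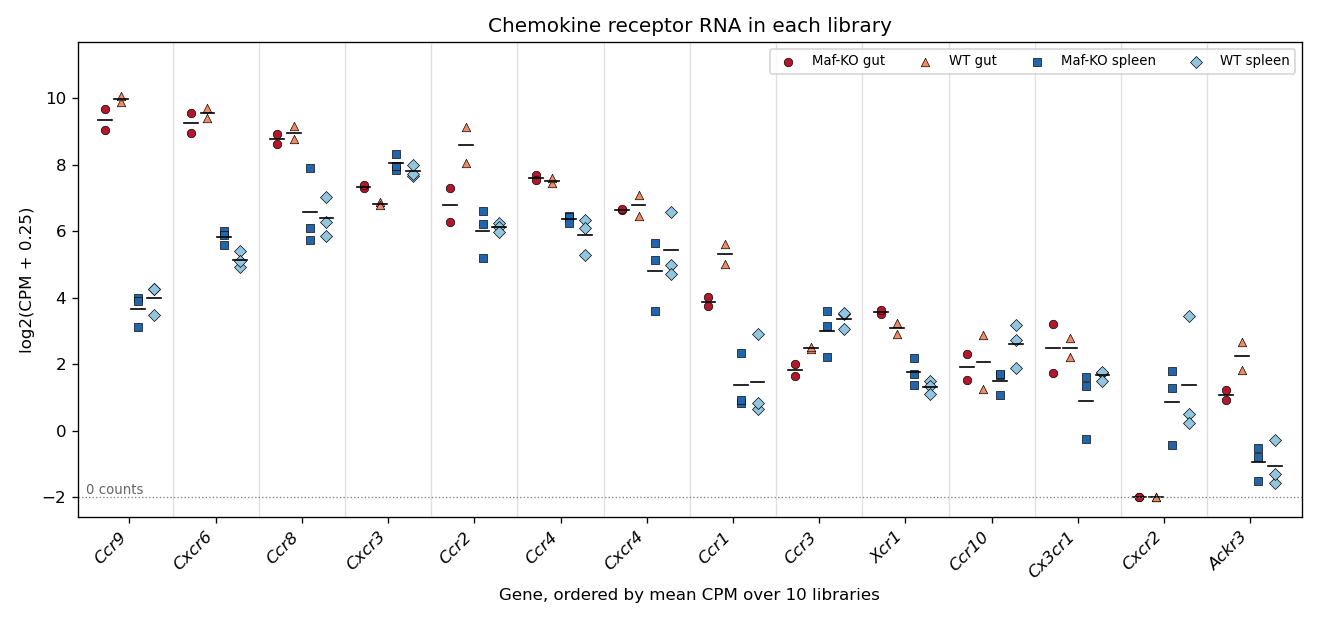
Level of 14 tested receptor genes in each library, as log2(CPM + 0.25), with genes ordered by mean CPM and a short bar at each group mean. Ccr9 and Cxcr6 sit far higher in the 4 gut libraries than in the 6 spleen libraries, Cxcr3 sits lower there, and Cxcr2 has 0 counts in gut.

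The comparison of gut with spleen within each genotype asks which receptors and ligands differ between Tregs of the intestine and of the spleen. Most receptor and ligand genes that were tested had more RNA in gut Tregs, among them Ccr9, Cxcr6, Xcl1, Ccl3, Ccl4 and Cxcl10. Cxcr3 was lower in gut in both genotypes. In Maf-KO cells edgeR called 19 of the 31 genes, 17 higher and 2 lower in gut, where it called 28.5% of all 13214 genes tested (14.4% higher and 14.1% lower). In WT cells it called 22 of the 31, 20 higher and 2 lower, against 28.0% of all genes (14.7% higher and 13.3% lower). Of the 31, 17 were called higher in gut in both genotypes, a count for which the share of all genes was not computed. By role, the genes called higher in gut in Maf-KO cells were 5 of 8 CC receptors, 2 of 6 CXC or other receptors, 3 of 8 CC ligands and 6 of 8 CXC or other ligands. In WT cells they were 6 of 8, 2 of 6, 4 of 8 and 7 of 8, and Ackr3 was called higher in both genotypes.

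The filter bears on these counts, those by role included. Ackr3, Ccl22 and the CXC or other ligands Cx3cl1, Cxcl1, Cxcl2 and Cxcl3 passed it through gut libraries alone, which favours higher calls in gut. Cxcr2 passed it through spleen libraries alone, which favours a lower call. The recount that follows is not split by role. Of the 24 genes that reached the filter's level in each tissue, 15 were called in Maf-KO cells, 13 higher and 2 lower. In WT cells 15 of the 24 were called, 14 higher and 1 lower. Of all genes that reached it in each tissue, 28.1% were called in Maf-KO cells and 27.5% in WT cells. Median log2 fold changes of these 24 were 1.76 in Maf-KO and 1.75 in WT, against -0.02 and -0.03 over all genes tested. The next counts take in all 31 genes again, with those that passed through gut or spleen libraries alone, which favours no overlap. Libraries of gut and spleen did not overlap for 25 of the 31 in Maf-KO cells, 21 higher and 4 lower in gut. The share of all genes was 56.4% (27.5% higher and 28.9% lower in gut). In WT cells the libraries did not overlap for 26, 22 higher and 4 lower, against 53.4% (25.9% higher and 27.5% lower). In these sorted bulk samples, more cells that express a gene and more RNA per cell cannot be told apart.

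Ccr9 encodes the receptor for CCL25 and differed widely between the tissues. Ccr9 had 810.0 and 529 CPM in Maf-KO gut and 953 and 1077 CPM in WT gut. Spleen levels of Ccr9 were 8.35, 15.7 and 14.7 CPM in Maf-KO spleen and 19.1, 18.9 and 10.8 CPM in WT spleen. Every gut library held more than every spleen library in each genotype, and the log2 fold change was 5.69 in Maf-KO (SE 0.33, edgeR adjusted p = 3.04e-06) and 5.96 in WT (SE 0.33, adjusted p = 2.00e-06). GENCODE exons of Ccr9 share 18.8% of their bases with the transcript AC165425.1 on the other strand, and the strand setting of the counts is not given in the sources used here.

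Ccr8, the receptor for CCL1, was abundant in both tissues and varied widely in spleen. Ccr8 reached 390.0 and 489 CPM in Maf-KO gut and 437 and 568 CPM in WT gut. Among spleen libraries Ccr8 stood at 236, 53.5 and 68 CPM in Maf-KO spleen and 76.9, 58 and 131 CPM in WT spleen. Replicate 1 of Maf-KO spleen was more than 3 times as high as its partners, yet all gut libraries lay above it. The gut over spleen log2 fold change was 1.88 in Maf-KO (SE 0.55, edgeR adjusted p = 0.0286) and 2.51 in WT (SE 0.56, adjusted p = 0.008). In Maf-KO it was 2.85 without Maf-KO spleen replicate 1 (edgeR adjusted p = 6.73e-04). With the Maf-KO groups compared alone, the Maf-KO value was 1.88 and did not pass (edgeR adjusted p = 0.0591). Leaving out either Maf-KO gut library or Maf-KO spleen replicate 2 or 3 ended the Maf-KO call (edgeR adjusted p 0.0666 to 0.127).

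Ccr4, which binds CCL17 and CCL22, differed by a smaller factor, with little spread except in WT spleen. Ccr4 levels were 205 and 187 CPM in Maf-KO gut and 173 and 194 CPM in WT gut. In the spleen groups Ccr4 had 88.1, 85.2 and 75.7 CPM in Maf-KO spleen and 38.6, 79.8 and 68.1 CPM in WT spleen. Gut lay above spleen without overlap, with a log2 fold change of 1.24 in Maf-KO (SE 0.23, edgeR adjusted p = 0.00349) and 1.56 in WT (SE 0.24, adjusted p = 0.00103).

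Ccr1 and Ccr2, inflammatory receptors also known from monocytes, were both higher in gut in WT cells. Ccr1 had 15.8 and 13.3 CPM in Maf-KO gut and 49.2 and 32.2 CPM in WT gut. The spleen libraries held less Ccr1, at 1.52, 4.84 and 1.66 CPM in Maf-KO spleen and 1.33, 1.54 and 7.3 CPM in WT spleen, without overlap with gut. The Ccr1 log2 fold change was 2.45 in Maf-KO (SE 0.68, edgeR adjusted p = 0.0227) and 3.60 in WT (SE 0.67, adjusted p = 0.00316). WT spleen replicate 3 was the highest spleen library for Ccr1 and for neutrophil markers, and without it the WT value was 4.81. Without Maf-KO spleen replicate 2 the Maf-KO value was 3.19. Without either Maf-KO gut library, or without Maf-KO spleen replicate 1 or 3, the Maf-KO call of Ccr1 ended (edgeR adjusted p 0.0642 to 0.0843).

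Ccr2 stood at 77.3 and 156 CPM in Maf-KO gut and 567 and 266 CPM in WT gut. Spleen levels of Ccr2 were 36.2, 73.4 and 97.2 CPM in Maf-KO spleen and 76.3, 69.7 and 62.7 CPM in WT spleen. WT gut lay above WT spleen without overlap, whereas Maf-KO gut and Maf-KO spleen overlapped. Gut over spleen was 0.76 in Maf-KO (SE 0.42, edgeR adjusted p = 0.215) and 2.58 in WT (SE 0.43, adjusted p = 0.00168) on the log2 scale, so the call was made in WT only. Without WT gut replicate 1 the WT value was 1.93 and still passed (edgeR adjusted p = 0.0196).

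Ccr3, the eotaxin receptor, ran the other way. Ccr3 had 2.87 and 3.75 CPM in Maf-KO gut and 5.27 and 5.44 CPM in WT gut, with 4.44, 11.8 and 8.57 CPM in Maf-KO spleen and 8.0, 11.2 and 11.3 CPM in WT spleen. Gut lay below spleen without overlap in each genotype. Ccr3 had a log2 fold change of -1.32 in Maf-KO (SE 0.39, edgeR adjusted p = 0.0296) and -0.92 in WT (SE 0.38, adjusted p = 0.0962), called in Maf-KO, and that call ended without any of Maf-KO gut replicates 2 and 3 and Maf-KO spleen replicates 2 and 3 (edgeR adjusted p 0.0623 to 0.162). The Maf-KO call of Ccr3 also ended with limma-voom (adjusted p = 0.0605) and with the Maf-KO groups compared alone (edgeR adjusted p = 0.0739). Ccr10, the receptor for CCL27 and CCL28, was low and not called, at 4.7 and 2.63 CPM in Maf-KO gut and 7.03 and 2.13 CPM in WT gut, with 1.84, 2.97 and 3.02 CPM in Maf-KO spleen and 6.4, 8.77 and 3.42 CPM in WT spleen. Its log2 fold change was 0.48 in Maf-KO (SE 0.55, edgeR adjusted p = 0.559) and -0.44 in WT (SE 0.54, adjusted p = 0.584).

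Among the other receptors Cxcr6, which binds the membrane-anchored ligand CXCL16, had the clearest difference. Cxcr6 reached 755 and 494 CPM in Maf-KO gut and 832 and 672 CPM in WT gut. In spleen the Cxcr6 level was 47.3, 64.1 and 59 CPM in Maf-KO spleen and 42.2, 30.3 and 34.1 CPM in WT spleen. The lowest gut library was far above the highest spleen library, and the log2 fold change was 3.46 in Maf-KO (SE 0.22, edgeR adjusted p = 6.14e-06) and 4.40 in WT (SE 0.23, adjusted p = 1.51e-06). Xcr1, the receptor for XCL1, was low, with 11 and 12.2 CPM in Maf-KO gut and 9.17 and 7.33 CPM in WT gut. Its spleen libraries held 3.04, 4.29 and 2.34 CPM in Maf-KO spleen and 2.58, 2.31 and 1.9 CPM in WT spleen, below every gut library. Xcr1 exceeded spleen in gut by a log2 fold change of 1.85 in Maf-KO (SE 0.29, edgeR adjusted p = 0.0012) and 1.86 in WT (SE 0.30, adjusted p = 0.00136). Dendritic cell markers summed to 17.6 to 31.4 CPM in Maf-KO gut and 16.0 to 18.1 CPM in WT gut. In spleen they summed to 13.6 to 20.7 CPM in Maf-KO and 12.9 to 44.4 CPM in WT. The part of dendritic cells in the Xcr1 level was not tested.

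Cxcr3, which binds CXCL9 and CXCL10, was the abundant receptor with less RNA in gut. Cxcr3 had 157 and 167 CPM in Maf-KO gut and 116 and 111 CPM in WT gut. Spleen libraries held 322, 227 and 249.9 CPM in Maf-KO spleen and 203, 212 and 254 CPM in WT spleen. The tissues did not overlap, and the log2 fold change was -0.72 in Maf-KO (SE 0.16, edgeR adjusted p = 0.00768) and -0.97 in WT (SE 0.16, adjusted p = 0.00167). The Maf-KO value missed the threshold without Maf-KO gut replicate 2 (-0.68, edgeR adjusted p = 0.0595). Without TMM factors the median of all genes shifted to -0.28 in Maf-KO and -0.30 in WT, and Cxcr3 stayed below that shift.

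Cxcr4, the receptor for CXCL12, and Cx3cr1, the fractalkine receptor, did not pass in either genotype. Cxcr4 stood at 99.1 and 101 CPM in Maf-KO gut and 87.4 and 137 CPM in WT gut. In spleen Cxcr4 ranged widely, with 49.8, 34.7 and 11.9 CPM in Maf-KO spleen and 31.5, 26.2 and 95.1 CPM in WT spleen. Cxcr4 had a log2 fold change of 1.64 in Maf-KO (SE 0.59, edgeR adjusted p = 0.0638) and 1.14 in WT (SE 0.59, adjusted p = 0.177). Libraries that share a title number in gut and spleen deviated together, and with that number as a fixed block over 8 libraries Cxcr4 passed, at 2.22 in Maf-KO (edgeR adjusted p = 0.00136) and 0.97 in WT (edgeR adjusted p = 0.0421). Without WT spleen replicate 3 the WT value was 1.96 (edgeR adjusted p = 0.0204).

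Cx3cr1 had 8.96 and 3.11 CPM in Maf-KO gut and 4.4 and 6.62 CPM in WT gut, with 2.82, 2.31 and 0.584 CPM in Maf-KO spleen and 3.11, 3.16 and 2.56 CPM in WT spleen. Gut and spleen did not overlap in either genotype. Its log2 fold change was 1.67 in Maf-KO (SE 0.58, edgeR adjusted p = 0.0554) and 0.90 in WT (SE 0.57, adjusted p = 0.273), and the fixed title number block called it in Maf-KO (2.10, edgeR adjusted p = 0.00288). Within gut, Cx3cr1 was higher in Maf-KO replicate 2 and WT replicate 3, the libraries with the higher macrophage and monocyte sums. The part of such cells in its level was not tested.

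Cxcr2, the neutrophil receptor for CXCL1 and its relatives, had 0 counts in all 4 gut libraries. Its spleen level was 2.17, 3.19 and 0.487 CPM in Maf-KO spleen and 1.16, 0.924 and 10.6 CPM in WT spleen, highest in the library with the most neutrophil marker RNA. Against 3 counts over the group, Cxcr2 was at least 15.6-fold lower in Maf-KO gut than in Maf-KO spleen and at least 23.2-fold lower in WT gut than in WT spleen. WT spleen replicate 3 held 112 of the 137 WT spleen counts, and without it the WT bound was 5.69-fold. The WT difference was called (edgeR adjusted p = 0.0414) and the Maf-KO difference was not (edgeR adjusted p = 0.0606), although DESeq2 (adjusted p = 0.00118) and the fixed title number block (edgeR adjusted p = 0.0032) called it. The WT call ended without either WT gut library or without Maf-KO spleen replicate 1 or 2, which enter the shared spread (edgeR adjusted p 0.053 to 0.145). It also ended with limma-voom (adjusted p = 0.0981) and with the WT groups compared alone (edgeR adjusted p = 0.0626). The part of neutrophils in the Cxcr2 counts was not tested. Ackr3, the atypical receptor that takes up CXCL12, had 1.65 and 2.07 CPM in Maf-KO gut and 6.15 and 3.31 CPM in WT gut, with 0.325, 0.44 and 0.0974 CPM in Maf-KO spleen and 0.0889, 0.154 and 0.569 CPM in WT spleen. Its gut libraries lay above spleen without overlap, with a log2 fold change of 2.67 in Maf-KO (SE 0.69, edgeR adjusted p = 0.0162) and 4.11 in WT (SE 0.66, adjusted p = 0.00139). The Maf-KO call ended without Maf-KO gut replicate 3 (edgeR adjusted p = 0.0856) or Maf-KO spleen replicate 3 (edgeR adjusted p = 0.0512). Without WT spleen replicate 3 the WT value of Ackr3 was 5.13.

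**Figure D2:**
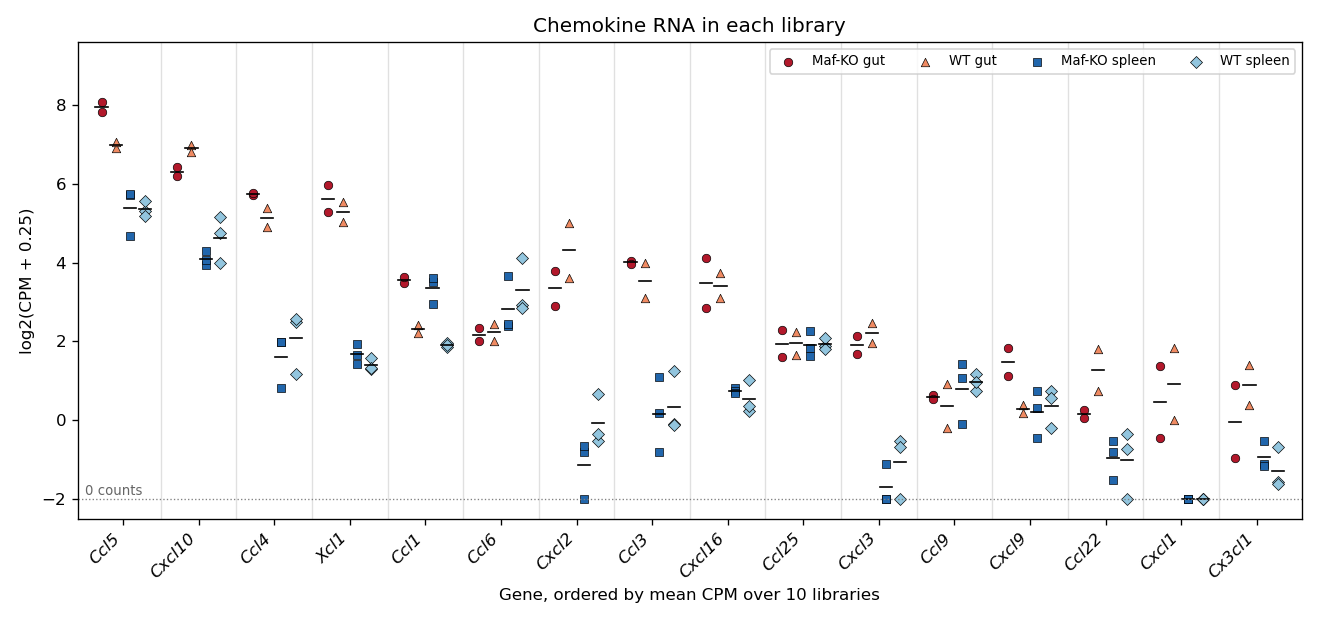
Level of the 16 tested chemokine genes in each library, as log2(CPM + 0.25), with genes ordered by mean CPM and a short bar at each group mean. Ccl4, Xcl1, Ccl3, Cxcl2 and Cxcl16 are higher in all 4 gut libraries than in all 6 spleen libraries, and Ccl1 separates Maf-KO from WT in both tissues.

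Among CC ligands, Ccl5, Ccl4 and Ccl3 were higher in gut in both genotypes. They encode inflammatory chemokines that effector T cells and NK cells release. Ccl5 had 271 and 227 CPM in Maf-KO gut and 121 and 134 CPM in WT gut. Spleen held 25.1, 52.6 and 53.7 CPM in Maf-KO spleen and 39.5, 36.3 and 47.1 CPM in WT spleen, and the log2 fold change was 2.51 in Maf-KO (SE 0.27, edgeR adjusted p = 1.29e-04) and 1.64 in WT (SE 0.26, adjusted p = 0.00151). Ccl4 stood at 51.9 and 54.7 CPM in Maf-KO gut and 29.6 and 41.3 CPM in WT gut, with 1.52, 3.74 and 3.7 CPM in Maf-KO spleen and 5.42, 2.0 and 5.69 CPM in WT spleen. Ccl4 did not overlap between tissues and had a log2 fold change of 4.15 in Maf-KO (SE 0.43, edgeR adjusted p = 1.10e-04) and 3.03 in WT (SE 0.41, adjusted p = 5.29e-04). Summed markers of CD8 T cells and NK cells, which make these ligands too, stood at 33.2 to 34.2 CPM in Maf-KO gut, 22.4 to 33.6 CPM in WT gut, 44.3 to 106 CPM in Maf-KO spleen and 62.3 to 82.8 CPM in WT spleen. The part of CD8 T cells and NK cells in the ligand levels was not tested.

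Ccl3 had 16.3 and 15.5 CPM in Maf-KO gut and 8.29 and 15.6 CPM in WT gut, with 0.325, 1.87 and 0.877 CPM in Maf-KO spleen and 2.13, 0.693 and 0.664 CPM in WT spleen. Each gut library was at least 3 times as high as any spleen library, and the log2 fold change was 3.94 in Maf-KO (SE 0.61, edgeR adjusted p = 0.00114) and 3.35 in WT (SE 0.59, adjusted p = 0.00242). Without Maf-KO spleen replicate 2 the Maf-KO value of Ccl3 was 4.67, and without WT spleen replicate 1 the WT value was 4.11. Ccl22, a ligand of CCR4, was close to the floor in spleen. Ccl22 had 0.783 and 0.958 CPM in Maf-KO gut and 3.27 and 1.42 CPM in WT gut, with 0.325, 0.44 and 0.0974 CPM in Maf-KO spleen and 0.356, 0.539 and 0 CPM in WT spleen. The log2 fold change of Ccl22 was 1.59 in Maf-KO (SE 0.87, edgeR adjusted p = 0.209) and 2.87 in WT (SE 0.79, adjusted p = 0.0222), called in WT only, and that call ended without WT gut replicate 1 (edgeR adjusted p = 0.198) or WT spleen replicate 1 (edgeR adjusted p = 0.0539). Without WT spleen replicate 2, the WT value was 3.59.

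The remaining tested CC ligands did not pass between tissues. Ccl1, the ligand of CCR8, had a log2 fold change of 0.18 in Maf-KO (SE 0.24, edgeR adjusted p = 0.618) and 0.43 in WT (SE 0.26, adjusted p = 0.246). Ccl6, a chemokine gene of myeloid cells in the mouse, stood at 4.78 and 3.75 CPM in Maf-KO gut and 3.77 and 5.2 CPM in WT gut, with 4.99, 12.4 and 5.16 CPM in Maf-KO spleen and 7.29, 7.0 and 17.1 CPM in WT spleen. Its highest library was WT spleen replicate 3, and its log2 fold change was -0.82 in Maf-KO (SE 0.51, edgeR adjusted p = 0.271) and -1.21 in WT (SE 0.52, adjusted p = 0.113). The fixed title number block called Ccl6 in WT (-1.37, edgeR adjusted p = 0.00988). Ccl9 and Ccl25 did not pass either, at -0.39 and 0.06 in Maf-KO and -0.57 and 0.05 in WT.

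Of the other ligands, Xcl1 had the largest test statistic. It encodes lymphotactin, the ligand of XCR1 that activated T cells and NK cells release. GENCODE exons of Xcl1 share 18.7% of their bases with the transcript Gm20743 on the other strand. Xcl1 reached 62.6 and 38.4 CPM in Maf-KO gut and 46.1 and 32.4 CPM in WT gut. In spleen it stood at 3.58, 2.42 and 2.92 CPM in Maf-KO spleen and 2.76, 2.23 and 2.28 CPM in WT spleen, far below every gut library, and the log2 fold change was 4.08 in Maf-KO (SE 0.27, edgeR adjusted p = 7.15e-06) and 4.01 in WT (SE 0.27, adjusted p = 7.77e-06). Cxcl10, an interferon-induced ligand of CXCR3, had 73.5 and 85.2 CPM in Maf-KO gut and 126 and 112 CPM in WT gut. Spleen cells held 19.3, 15 and 16.5 CPM in Maf-KO spleen and 35.5, 15.5 and 26.7 CPM in WT spleen of Cxcl10. The tissues did not overlap and the log2 fold change was 2.23 in Maf-KO (SE 0.27, edgeR adjusted p = 2.92e-04) and 2.20 in WT (SE 0.27, adjusted p = 2.72e-04). Cxcl9, another ligand of CXCR3, was at 3.30 CPM or less in every library and did not pass, at 1.44 in Maf-KO and -0.15 in WT.

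Cxcl16, the ligand of CXCR6 made by myeloid and epithelial cells, was detected in every library. Cxcl16 had 17.2 and 6.94 CPM in Maf-KO gut and 8.29 and 13.1 CPM in WT gut, with 1.52, 1.43 and 1.36 CPM in Maf-KO spleen and 1.78, 0.924 and 1.04 CPM in WT spleen. Gut lay above spleen, with a log2 fold change of 3.06 in Maf-KO (SE 0.43, edgeR adjusted p = 7.14e-04) and 3.09 in WT (SE 0.44, adjusted p = 6.91e-04). Without Maf-KO gut replicate 2, the gut library with the highest macrophage and monocyte sum, the Maf-KO value was 2.26 and passed (edgeR adjusted p = 0.00684). Epithelial markers summed to 147 to 158 CPM in Maf-KO gut, 141 to 176 CPM in WT gut, 35.2 to 70.6 CPM in Maf-KO spleen and 38.5 to 63.6 CPM in WT spleen. Most of these sums was Epcam, with the keratin genes Krt8, Krt19 and Krt20 at 3.11 CPM or less, and the part of epithelial cells in Cxcl16, Cxcl1 and Cxcl2 was not tested. The exons of Cxcl16 share 18.3% of their bases with Zmynd15 on the other strand. Cx3cl1, which encodes fractalkine, stood at 0.261 and 1.6 CPM in Maf-KO gut and 2.39 and 1.06 CPM in WT gut, with 0.217, 0.44 and 0.195 CPM in Maf-KO spleen and 0.0889, 0.077 and 0.379 CPM in WT spleen. It was called in WT only, with 1.70 in Maf-KO (SE 0.87, edgeR adjusted p = 0.18) and 3.21 in WT (SE 0.88, adjusted p = 0.0219), and that call ended without WT gut replicate 1, WT spleen replicate 1 or WT spleen replicate 2 (edgeR adjusted p 0.0673 to 0.173). Without WT spleen replicate 3 the WT value of Cx3cl1 was 4.19.

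Cxcl1, Cxcl2 and Cxcl3, ligands of CXCR2 that draw neutrophils, lie close together on chromosome 5 and were higher in gut in both genotypes. Their promoters are shown because the genes share a direction between tissues, although each passed the filter through gut libraries alone. The promoters are given as the 250 bases before each RefSeq gene start on the plus strand of GRCm38.p6, 5′ to 3′. Capitals mark matches on either strand to the kappaB motif of NF-kB (GGG, any 2 bases, TTTCC) and to the TATA-like motif ATAAAAG, and no matches overlap. The windows are chr5:90890995-90891244 (Cxcl1), chr5:90903649-90903898 (Cxcl2) and chr5:90785851-90786100 (Cxcl3).
Cxcl1: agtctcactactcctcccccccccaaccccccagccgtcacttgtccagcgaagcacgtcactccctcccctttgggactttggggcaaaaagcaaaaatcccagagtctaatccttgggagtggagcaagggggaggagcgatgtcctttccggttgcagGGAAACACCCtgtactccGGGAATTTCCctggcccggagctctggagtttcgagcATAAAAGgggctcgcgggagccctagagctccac
Cxcl2: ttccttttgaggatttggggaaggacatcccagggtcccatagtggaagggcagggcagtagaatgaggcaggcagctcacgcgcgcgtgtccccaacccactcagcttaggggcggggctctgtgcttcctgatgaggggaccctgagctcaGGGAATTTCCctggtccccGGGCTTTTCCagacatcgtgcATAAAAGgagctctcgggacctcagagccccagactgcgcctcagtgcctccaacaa
Cxcl3: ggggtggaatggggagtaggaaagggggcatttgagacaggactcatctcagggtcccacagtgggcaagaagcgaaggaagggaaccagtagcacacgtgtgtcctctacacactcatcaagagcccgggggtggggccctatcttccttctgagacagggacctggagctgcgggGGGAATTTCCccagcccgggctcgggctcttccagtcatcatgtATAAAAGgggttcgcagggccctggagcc

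The kappaB motif occurred in 1.63% of 32851 RefSeq promoter windows of 300 bases and the TATA-like motif in 5.42%. Of 49 windows for 43 of the 57 genes, 5 held the kappaB motif and 14 the TATA-like motif. Besides Cxcl1, Cxcl2 and Cxcl3, the kappaB windows were those of Ccr3, which had lower values in gut, and Ccl9, which was not called between tissues. Matches to the kappaB motif began at -89 and -71 in Cxcl1, -97 and -78 in Cxcl2 and -73 in Cxcl3, counted from the gene start. They describe letters, not bound sites. Cxcl2 had 13.7 and 7.18 CPM in Maf-KO gut and 11.9 and 32 CPM in WT gut. Its spleen libraries held 0.325, 0 and 0.39 CPM in Maf-KO spleen and 0.444, 0.539 and 1.33 CPM in WT spleen, and the log2 fold change was 5.35 in Maf-KO (SE 0.75, edgeR adjusted p = 6.59e-04) and 4.84 in WT (SE 0.64, adjusted p = 4.82e-04). Without WT gut replicate 3 the WT value for Cxcl2 was 3.95 and passed (edgeR adjusted p = 0.00432), and without WT spleen replicate 3 it was 5.44.

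Cxcl3 had 2.96 and 4.15 CPM in Maf-KO gut and 3.64 and 5.32 CPM in WT gut. It held 2, 0 and 0 counts in Maf-KO spleen and 5, 0 and 4 counts in WT spleen. Counts scaled to depth gave a Maf-KO gut to spleen ratio of 51.1 (exact 95% counting interval 13.7 to 429), and the WT log2 fold change was 4.03 (SE 0.80, edgeR adjusted p = 0.00449), or 3.40 without WT spleen replicate 2. Cxcl1 had 27 and 6 counts in Maf-KO gut, 6 and 28 counts in WT gut and 0 counts in all 6 spleen libraries. Against 3 counts over the group, Cxcl1 was at least 13.5-fold higher in Maf-KO gut than in Maf-KO spleen and at least 23.6-fold higher in WT gut than in WT spleen. The bounds were 4.56-fold without Maf-KO gut replicate 2 and 8.74-fold without WT gut replicate 3. Cxcl1 missed the threshold without Maf-KO gut replicate 2 (edgeR adjusted p = 0.146), with any of the 3 Maf-KO spleen libraries left out in the Maf-KO comparison (0.0625 to 0.0683) and without WT gut replicate 3 in the WT comparison (edgeR adjusted p = 0.09997). Cxcl1, Cxcl2 and Cxcl16 were each higher in Maf-KO gut replicate 2 than in replicate 3 and in WT gut replicate 3 than in replicate 1, as were the macrophage and monocyte markers. Cxcl3 was also higher in WT gut replicate 3 than in replicate 1, but lower in Maf-KO gut replicate 2 (2.96 CPM) than in replicate 3 (4.15 CPM). The part of macrophages and monocytes in these chemokine levels was not tested.

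**Figure D3:**
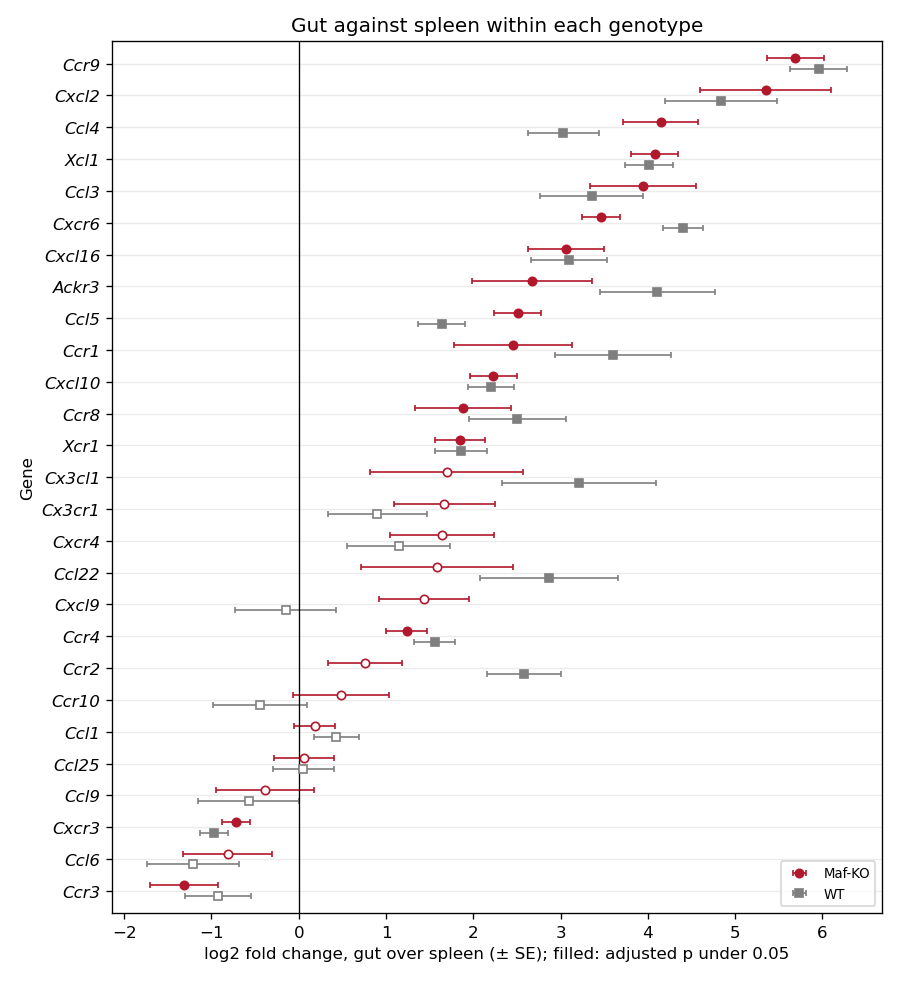
Log2 fold change of gut over spleen with its SE for 27 tested genes in Maf-KO (circles) and WT (squares), filled where the edgeR adjusted p is under 0.05. Cxcr2, Cxcl1 and Cxcl3 are left out because a group held 3 counts or fewer, and Ccr9, with 5.69 in Maf-KO and 5.96 in WT, stands at the top.

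Genes that did not pass the filter had low counts, and Ccl7 and Ccl12 each reached its level in 1 Maf-KO gut library. Ccl7, a ligand of CCR2, had 23 and 8 counts in Maf-KO gut, 4 and 2 counts in WT gut and 0 counts in all 6 spleen libraries. Ccl12, another CCR2 ligand of the mouse, had 19 and 4 counts in Maf-KO gut, 3 and 9 counts in WT gut and 1 count among the 6 spleen libraries. Ccl2 held 7 and 4 counts in Maf-KO gut and 1 and 2 counts in WT gut. Ackr2, a scavenger of CC chemokines, had up to 13 counts in spleen and up to 3 in gut. Ccl8, Ccl11, Ccl17, Ccl21a, Ccl24, Ccl27a, Ccl28, Cxcl5, Cxcl11, Cxcl12, Cxcl13, Cxcl14, Cxcl17, Cxcr1, Ackr1 and Ackr4 had 15 counts or fewer in each library.

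The receptor genes Ccr9, Cxcr6, Xcr1, Ccr1, Ccr3 and Ccr2 lie in this order on chromosome 9 (GRCm38, chr9:123767211-124109140). Gut exceeded spleen for Ccr9, Cxcr6, Xcr1 and Ccr1 in both genotypes by a passing test. Ccr2 passed in WT only, and Ccr3, between Ccr1 and Ccr2, had the opposite sign. Of the 50-base stretches in Ccr2 transcripts, 1.91% also occur in another gene.

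**Figure D4:**
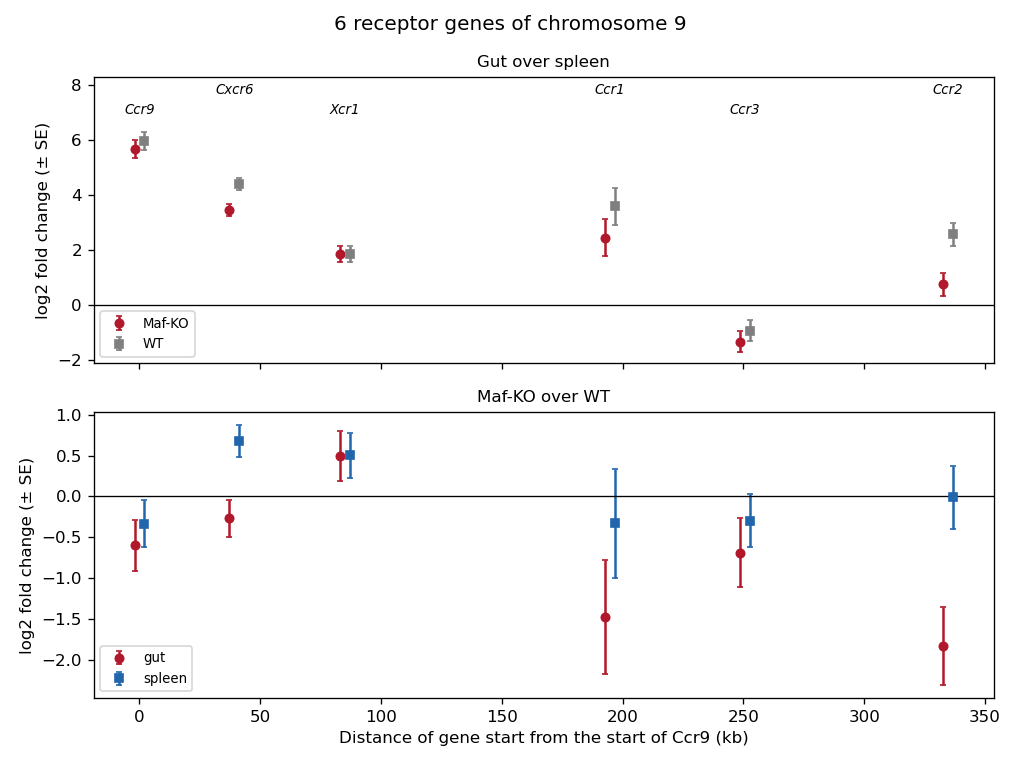
Log2 fold changes with SE for 6 receptor genes of chromosome 9 against the distance of their gene starts from that of Ccr9, in kb. The upper panel gives gut over spleen in Maf-KO and WT, with Ccr3 alone below 0, and the lower panel gives Maf-KO over WT in gut and in spleen, with Ccr2 at -1.83 in gut and -0.01 in spleen.

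The comparison of Maf-KO with WT asks what loss of c-Maf does to these genes in Tregs of each tissue. No receptor or ligand gene passed in either tissue alone. The genes with the smallest p-values in gut were Ccl1 and Ccl5, with higher values in Maf-KO, and Ccr2, with lower values. In gut edgeR called 0 of the 31 genes, against 0.151% of all genes tested (0.136% lower and 0.0151% higher), and 6 of the 31 had an unadjusted p under 0.05, as had 1076 of all 13214. DESeq2 called 1 of the 31 in gut (Ccl1), edgeR without the low-count filter called 1 (Ccr2), and limma-voom and limma-trend called 0.

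Maf-KO and WT gut libraries did not overlap for 14 of the 31 genes, 6 with higher and 8 with lower values in Maf-KO. The same held for 36.2% of all genes (17.4% higher and 18.8% lower). The median log2 fold change was -0.17 over the 31 and -0.0035 over all genes. In spleen edgeR again called 0 of the 31, against 0.0151% of all genes, with 5 of the 31 and 376 of all genes at an unadjusted p under 0.05. DESeq2, edgeR without the low-count filter and limma-trend on log2 FPKM each called 1 of the 31 in spleen, which was Ccl1, and limma-voom called 0. Spleen libraries of the genotypes did not overlap for 5 of the 31, against 7.51% of all genes. Ccl1 and Cxcr6 were higher, against 3.60% of all genes, and the other 3, Ccr10 and Cxcl2 among them, lower, against 3.90%.

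Ccl1, which encodes the ligand of CCR8, had higher values in Maf-KO cells of both tissues. Ccl1 stood at 11 and 12.2 CPM in Maf-KO gut and 4.4 and 5.08 CPM in WT gut. Spleen values of Ccl1 were 11.2, 7.49 and 12 CPM in Maf-KO spleen and 3.64, 3.39 and 3.51 CPM in WT spleen. Every Maf-KO library lay above every WT library, across tissues as well as within each. On the log2 scale Maf-KO over WT was 1.29 (SE 0.28, edgeR adjusted p = 0.18) in gut and 1.54 (SE 0.23, edgeR adjusted p = 0.163) in spleen. DESeq2 gave 1.29 in gut (adjusted p = 0.0304) and 1.55 in spleen (adjusted p = 1.37e-04).

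Averaged over both tissues in the same edgeR fit, a contrast added after the values had been seen, Ccl1 rose by a log2 fold change of 1.41 (SE 0.18, edgeR adjusted p = 0.0129). It was the only one of the 31 genes that this fit called in this contrast, against 0.242% of all genes (0.0454% higher and 0.197% lower). The call ended without Maf-KO gut replicate 2 (edgeR adjusted p = 0.059) or 3 (0.0688) and without WT gut replicate 1 (0.118) or 3 (0.0689), with values between 1.36 and 1.47. With the title number as a random effect in limma-voom, the value was 1.42 and did not pass (adjusted p = 0.0727). Ccl1 did not pass in the interaction of genotype and tissue (-0.25, SE 0.35).

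The promoter of Ccl1 is shown because Ccl1 was the gene called in the added contrast over both tissues. It comprises the 250 bases before the RefSeq gene start (minus strand, GRCm38.p6, chr11:82179813-82180062), written 5′ to 3′ along the gene.
Ccl1: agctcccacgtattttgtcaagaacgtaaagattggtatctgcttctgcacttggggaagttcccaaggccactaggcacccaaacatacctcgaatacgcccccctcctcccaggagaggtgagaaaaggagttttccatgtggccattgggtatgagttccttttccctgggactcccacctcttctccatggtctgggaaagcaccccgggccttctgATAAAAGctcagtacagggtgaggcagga

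Capitals mark the TATA-like motif ATAAAAG. The window of 300 bases around the start held no match on either strand to the Maf recognition motif TGCTGAC, the kappaB motif, the AP-1 motif TGANTCA or the RUNX motif TGTGGT, which were found in 4.67%, 1.63%, 7.81% and 16.8% of all windows. This says only that those letters do not occur there. Its receptor gene Ccr8 did not pass, with a log2 fold change of -0.19 (SE 0.60, edgeR adjusted p = 0.97) in gut and 0.43 (SE 0.50, edgeR adjusted p = 0.999) in spleen.

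Ccr2, the receptor for CCL2, CCL7 and CCL12, had the lowest values among receptors in Maf-KO gut relative to WT. As given above, Maf-KO gut held 77.3 and 156 CPM, below both WT gut libraries with 567 and 266 CPM. The log2 fold change was -1.83 (SE 0.48, edgeR adjusted p = 0.298) in gut and -0.01 (SE 0.39, edgeR adjusted p = 0.9997) in spleen, where the genotypes overlapped. Without the low-count filter the gut value was -1.81 and passed (edgeR adjusted p = 0.0381). Over the alternatives the gut value ran from -2.42 to -1.18 and its adjusted p from 0.0381 to 0.818.

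Ccl5, the inflammatory chemokine named above, had higher values in Maf-KO gut, at 271 and 227 CPM against 121 and 134 CPM in WT gut. Its log2 fold change was 0.97 (SE 0.29, edgeR adjusted p = 0.395) in gut and 0.10 (SE 0.24, edgeR adjusted p = 0.999) in spleen, where the genotypes overlapped. Cxcr3 also lay above WT in both Maf-KO gut libraries, at 157 and 167 CPM against 116 and 111 CPM in WT gut, a log2 fold change of 0.51 (SE 0.17, edgeR adjusted p = 0.47). Cxcl9 was at 3.30 and 1.92 CPM in Maf-KO gut and 0.879 and 1.06 CPM in WT gut, with 1.41 (SE 0.59, edgeR adjusted p = 0.591). Ccl4 and Xcr1 were the other genes whose Maf-KO gut libraries both exceeded WT gut, with log2 fold changes of 0.59 and 0.50 that did not pass.

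Values below WT without overlap in Maf-KO gut, none of which passed, included those of Ccr1 (-1.48), Ccl22 (-1.41), Ackr3 (-1.34), Ccr3 (-0.69), Ccr9 (-0.60) and Cxcl10 (-0.59), beside Ccr2. Of the 8 CC receptors 5 were in this set, against 18.8% of all genes, and none of the 5 passed. Of the 6 tested CXC or other receptors, 0 were lower without overlap and 2 were higher. The abundant Ccr8 and Ccr4 overlapped between genotypes. For Ccr9, Maf-KO gut held 810 and 529 CPM and WT gut 953 and 1077 CPM, an edgeR adjusted p of 0.667. Pancreatic acinar markers, which a sort of gut cells could carry along, summed to 1.30 and 2.23 CPM in Maf-KO gut and 107 and 18.1 CPM in WT gut, with 5 of the 6 at 0 counts in Maf-KO gut. Their part in these values was not tested.

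In spleen the genes with an unadjusted p under 0.05 included, besides Ccl1, Cxcr6, Ccr10 and Cxcl10. Cxcr6 had 47.3, 64.1 and 59 CPM in Maf-KO spleen and 42.2, 30.3 and 34.1 CPM in WT spleen. All Maf-KO values lay above all WT values, with a log2 fold change of 0.68 (SE 0.20, edgeR adjusted p = 0.999). Ccr10 had values below WT in each Maf-KO spleen library, at 1.84, 2.97 and 3.02 CPM against 6.4, 8.77 and 3.42 CPM in WT spleen, a log2 fold change of -1.25 (SE 0.49, edgeR adjusted p = 0.999). Cxcl10 overlapped between the genotypes in spleen, with a log2 fold change of -0.61 (SE 0.25, edgeR adjusted p = 0.999).

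**Figure D5:**
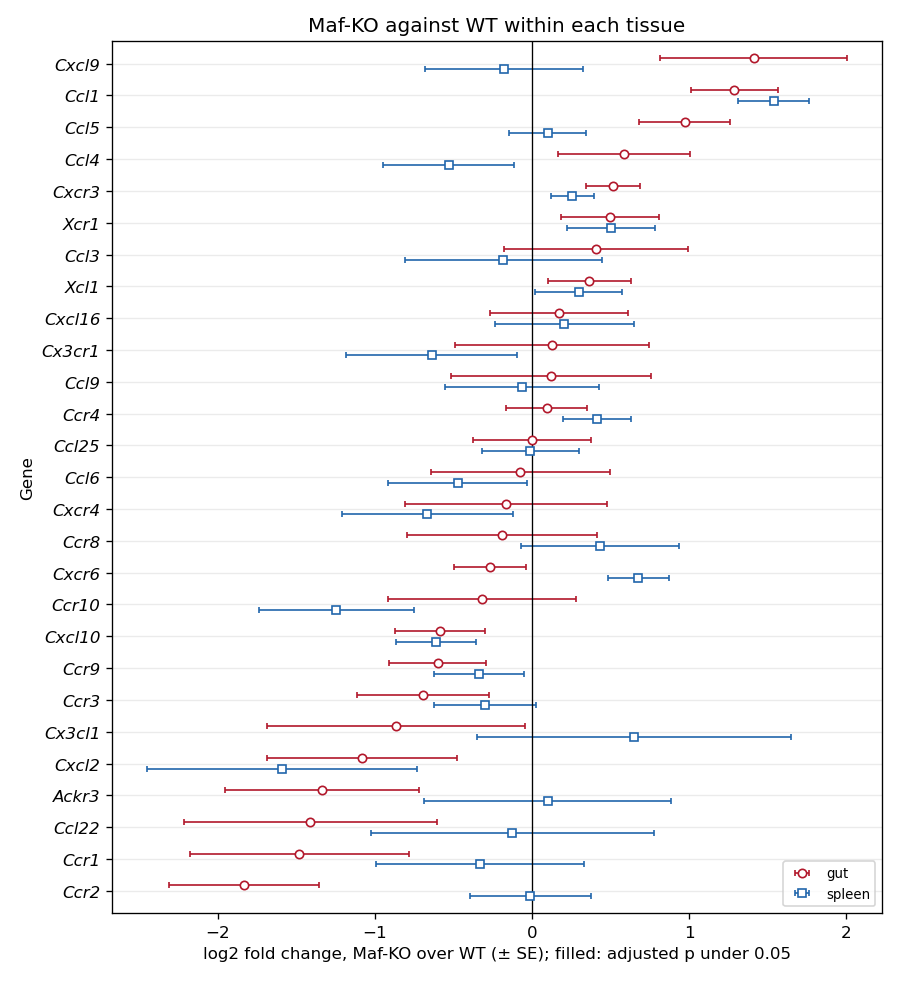
Log2 fold change of Maf-KO over WT with its SE for 27 tested genes in gut (circles) and spleen (squares), filled where the edgeR adjusted p is under 0.05. No symbol is filled, Ccl1 lies near 1.3 to 1.5 in both tissues, and Cxcr2, Cxcl1 and Cxcl3 are left out because a group held 3 counts or fewer.

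Whether the genotype effect differed between tissues was tested as an interaction, the effect in gut minus that in spleen. EdgeR called 0 of the 31 genes and 0 of all 13214 genes, with 3 of the 31 and 422 of all genes at an unadjusted p under 0.05. DESeq2 called 0 of the 31 and 8 of all genes, and limma-voom called 0 genes. The 3 genes were Cxcr6 (-0.95, SE 0.30), Ccr2 (-1.82, SE 0.61) and Ccl5 (0.87, SE 0.38), each at an edgeR adjusted p of 0.9999. The same term compares the gut over spleen difference between genotypes, so the calls of Ccr2, Cxcr2, Ccl22, Cx3cl1 and Ccr3 in a single genotype are not shown to differ between Maf-KO and WT.

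Genes through which the receptors act were read from a list of 40 signalling genes, such as G protein subunits, arrestins, RGS proteins and Rac activators, of which 38 were tested. EdgeR called 0 between genotypes, with 1 in gut and 3 in spleen at an unadjusted p under 0.05. Between tissues 12 of the 38 passed in Maf-KO cells, 7 higher and 5 lower in gut, against 28.5% of all genes. In WT cells 11 passed, 6 higher and 5 lower, against 28.0%, and both counts are close to those shares. Rgs2, which encodes a regulator that shortens G protein signals, had log2 fold changes of 4.82 in Maf-KO and 4.52 in WT. Rgs1, a related gene that limits responses to chemokines, had 1286 and 1206 CPM in Maf-KO gut, 1985 and 2230 CPM in WT gut, 194, 199 and 279 CPM in Maf-KO spleen and 484, 220 and 382 CPM in WT spleen. The log2 fold change of Rgs1 was 2.48 in Maf-KO and 2.54 in WT. The G protein gene Gng2 (0.99 in Maf-KO and 0.90 in WT) was higher too, whereas the PI3K subunit gene Pik3r5 (-1.04 and -1.43) was lower. Ptk2b (0.69) and Rgs14 (-0.49) in Maf-KO and Tiam1 (-0.87) and Rac2 (-0.54) in WT completed the named set.

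A list of 17 relatives and modifiers of chemoattractant receptors was read in the same way, with 14 tested. EdgeR called 0 between genotypes, with 3 in gut and 3 in spleen at an unadjusted p under 0.05. By tissue, 9 of the 14 passed in Maf-KO cells, 5 higher and 4 lower in gut, against 28.5% of all genes, and 11 in WT cells, 6 higher and 5 lower, against 28.0%. Ccrl2, a receptor-like gene whose product holds chemerin at the cell surface, had 375 and 376 CPM in Maf-KO gut, 353 and 375 CPM in WT gut, 29.7, 18.5 and 24.5 CPM in Maf-KO spleen and 20.7, 19.6 and 19.0 CPM in WT spleen. Its log2 fold change was 3.95 in Maf-KO and 4.20 in WT (edgeR adjusted p = 3.60e-07 and 2.55e-07). S1pr1 and S1pr4, receptors for the egress signal sphingosine 1-phosphate, were lower in gut, at -2.32 and -1.82 in Maf-KO and -2.77 and -1.77 in WT. The leukotriene B4 receptor gene Ltb4r1 (2.50 in Maf-KO and 3.01 in WT) and the oxysterol receptor gene Gpr183 (1.27 and 1.31) were higher. Dpp4, whose peptidase trims chemokines, was lower in gut than in spleen in Maf-KO cells (-1.58). Ptger4, a prostaglandin E2 receptor gene, was higher in gut than in spleen in WT cells (1.27). Each is named for the genotype in which its p was among the 6 smallest, which shows no difference between genotypes.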

How the data were processed

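Bulk RNA-seq read counts of Treg libraries from gut and spleen were deposited by the authors as raw counts per gene, together with log2 FPKM values per gene that the authors computed. The submitters' processing notes name Subread, featureCounts, limma, GRCm38 and mm10. The sources used here do not give their versions or whether reads were counted by strand. RNA was extracted with RNeasy Plus Mini and libraries were made with TruSeq RNA, per the labels' protocols.

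Counts of all 10 libraries were fitted in edgeR 4.0.16 (R 4.3.3) with TMM factors of 0.887 to 1.12, a model of 4 groups and the quasi-likelihood F test. The filterByExpr function kept 13214 genes, at a cutoff of 1.026 CPM. Adjustment over all of them followed Benjamini-Hochberg, and an adjusted p under 0.05 counted as a call. The SE was derived from the fold change and F. Levels in CPM carry the counting error of 8567035 to 13983965 reads a library, and replicates differed beyond that error, with chi-square per degree of freedom of 14.83 to 35.33. Log2 FPKM served for comparing levels between genes and in limma-trend.

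Alternatives used DESeq2 1.42.0, limma 3.58.1, other scaling, no filter, the groups alone, each library left out and blocks. Gut and spleen libraries that share a number at the start of their titles deviated together. The r values were 0.382 and 0.36 in Maf-KO and 0.313 and 0.255 in WT. With 2 gut libraries a group, deviations from their mean mirror each other, so the r values within a genotype are not independent. This number was tried as a block in alternatives, whereas the main fit, which gave the calls, held no block. The genes and gene lists described were chosen with earlier results of these data known. Tested genes that averaged at least 5 CPM in a group or were called in a contrast (28) were described library by library, except 1 that is counted in totals but not reported here, and the other 3 tested genes (Ccl9, Ccl25 and Cxcl9) by their range or fold change. From each of the 2 lists of other genes, up to 6 called genes with the smallest p were named per contrast. Promoters came from RefSeq tables of GRCm38.p6. Code was tested on simulated data.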

Additional observations from a re-analysis of the deposited data

How the results depend on the processing

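Counts of calls between genotypes depended on the tool. In gut, of the 31 genes and of all genes, edgeR called 0 and 20, edgeR without the low-count filter 1 and 74, and DESeq2 1 and 112. Over all genes limma-voom called 33 in gut, the gut groups alone 12 and the title number as random block 42. In spleen edgeR called 0 of the 31 and 2 of all genes, edgeR without the filter 1 and 12, DESeq2 1 and 18, and limma-trend 1 and 5. Over all genes limma-voom called 0 in spleen, the spleen groups alone 1, the random title number block 0 and a block on the replicate number 0. Replicate numbers in spleen did not pair the genotypes (r = -0.0394, -0.183 and -0.347). For the mean of both tissues, edgeR called 1 of the 31 and 32 of all genes, edgeR without the filter 2 and 77, DESeq2 2 and 125, and the random block 0 and 9. Between tissues the random title number block called 22 of the 31 and 5777 of all genes in Maf-KO and 24 and 5498 in WT, and the fixed block 24 and 5231 in Maf-KO and 24 and 4897 in WT. For the interaction DESeq2 called 8 of all genes and both title number blocks called 0.

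With each library left out in turn, calls in gut between genotypes ran from 4 to 22 of all genes and stayed at 0 of the 31, and those in spleen from 2 to 9 and at 0. Tissue calls ran from 14 to 21 of the 31 and 2118 to 3784 of all genes in Maf-KO, and 19 to 23 and 2183 to 3597 in WT. Calls for the mean of both tissues ran from 0 to 2 of the 31 and 10 to 30 of all genes, and the interaction stayed at 0. Cx3cl1, gut over spleen in Maf-KO, reversed to -0.10 without Maf-KO gut replicate 3 and was at most 2.45, without Maf-KO gut replicate 2. Ccl5 passed for the mean of both tissues without Maf-KO spleen replicate 1 (0.67, edgeR adjusted p = 0.0497). The cause of these changes was not tested. Without TMM factors the share of tissue calls that were higher in gut was 25.1% in Maf-KO and 25.2% in WT over all genes, against 50.5% and 52.4% with them, while 17 and 20 of the 31 were still called higher. FPKM was not recomputed, since no gene lengths were used here.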
